A study of Mus musculus with 4 samples.

Results

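The Eph receptors, their ephrin ligands, the semaphorins and the plexin and neuropilin receptors were followed in mouse E14 embryonic stem cells (ESCs) that carried or lacked the kinase gene Pim3. Members were taken by gene symbol: Epha and Ephb genes, Efna and Efnb genes, Sema3 to Sema7 genes, Plxna to Plxnd genes, and Nrp1 and Nrp2. This gave 53 of the 55418 genes of the deposited table, namely 14 Eph receptors, 8 ephrins, 20 semaphorins, 9 plexins and 2 neuropilins.

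RNA was sequenced from 4 libraries. The 2 WT libraries came from wild-type E14 cells, and the 2 Pim3-/- libraries from cells in which Pim3 had been cut with CRISPR/Cas9. The study's methods describe the knockout lines as separately derived clones and the WT samples as biological samples. The recorded strain of both groups was 12910la, and the culture, shared by both groups, was feeder-free on gelatin in serum medium to which LIF, a cytokine that maintains mouse ESCs, was added. The labels do not say which replicate number is which clone, and differences between the groups cannot be told apart from differences between these cultures and clones.

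Eph receptors are receptor tyrosine kinases that are switched on by ephrins on a touching cell. Ephrin-A ligands are held in the membrane by a lipid anchor and ephrin-B ligands by a transmembrane segment, and signals run into both the receptor-bearing and the ligand-bearing cell. Semaphorins act mostly through plexins, whose intracellular part controls small GTPases, and secreted class 3 semaphorins as a rule need a neuropilin beside the plexin. These families are best known for steering axons, for sorting cells at tissue boundaries and for shaping blood vessels, and several of them are present in the early embryo before any neuron exists.

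The libraries held 22029427 to 25668307 counts. Levels are given as counts per 1e6 counts (CPM) after scaling with edgeR's TMM factors, which ran from 0.828 to 1.172, and n is 2 libraries for each mean and SD. With library totals in place of these factors, all tested genes shift upwards by 0.45 on the log2 scale at the median, and every fold change below has to be read against that shift. Counts of Pim3 itself were 4392 and 4953 for WT, and 4970 and 4804 for the libraries labelled Pim3-/-, so its count over the whole gene does not check the labels. The pluripotency markers fixed for the check of cell type were all present. Their summed level was 10096 to 11124 CPM in WT and 7591 to 7637 CPM in Pim3-/- libraries, with 2 of 12 higher and 3 lower in the test described next (all tested genes, 17.6% and 16.2%).

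Of the 53 members, 43 passed the filter on low counts and went into the quasi-likelihood test of edgeR, whose p-values were adjusted by Benjamini and Hochberg's method over all 18444 tested genes. At an adjusted p under 0.05, 20 of the 43 (46.5%) were higher in Pim3-/- ESCs, against 17.6% of all tested genes, and 0 were lower, against 16.2%. At the study's threshold of at least 3-fold as well, 11 (25.6%) were higher, against 8.47% of all tested genes, and 0 were lower, against 1.38%. The Wald test of DESeq2 called 16 members higher, against 13.9% of all tested genes, and 0 lower, against 3197 of the 18444 tested genes. At an unadjusted p under 0.05, edgeR put 2 members lower, Efna4 and Sema4a. The median log2 fold change was 0.88 over the tested members and 0.07 over all tested genes. A total of 7 members reached the count filter through the Pim3-/- libraries alone and so had to differ to be tested. Of the 11 members at 3-fold, Efna5, Epha8, Plxnb3 and Sema6a are among these 7. The others of the 7, Nrp1, Plxnc1 and Sema5a, were not called. The 3-fold share without them was not computed. Where each library had to hold 10 counts or more, 16 of 36 members were higher, against 16.9% of the genes tested in the same way.

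The share of genes called depended on expression level across the whole table, and the members followed it only in part. Among genes with a mean of 10 CPM and over, 8 of 18 members were higher and 0 lower, where 12.7% of all such genes were higher and 27.0% lower. Between 1 and 10 CPM, 8 of 18 members were higher, against 23.1%, and 0 lower, against 5.58%. Under 1 CPM, 4 of 7 were higher, against 22.7%, and 0 lower, against 1.52%. These 7 are the members that reached the count filter through the Pim3-/- libraries alone, so nothing is read from their share. In 30 of the 43 tested members both Pim3-/- libraries lay above both WT libraries (38.3% of all tested genes), in 3 both lay below (34.2%), and in 10 the groups overlapped. The 30 include these same 7 members, for which the filter favoured that outcome, so nothing is read from their part of the 30.

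Which calls stood depended most on the WT libraries. Without WT replicate 1 only 3 members were called higher, and without WT replicate 2 only 6, and the calls over all genes fell from 3246 higher to 402 and 585. In these fits the lone WT library is assumed to vary as the Pim3-/- libraries do, which were farther apart. Epha2, Plxnd1 and Sema5b were the members called under every alternative run. Markers of primitive endoderm, a cell type that ESC cultures can give rise to, moved with the genotype. Their summed level was 89.2 and 107 CPM in WT and 472 and 412 CPM in Pim3-/- libraries. All 11 tested genes of the 12 were higher (100%, against 17.6% of all tested genes), with a median log2 fold change of 3.16. Among the 11, Sox17, Sox7 and Dab2 reached the count filter only with the Pim3-/- libraries. Nothing is read from their part of the 11 or of the median. Foxa2, which was not tested, was without a count in WT and had 5 and 7 counts in Pim3-/- libraries. The part of the primitive endoderm markers in the results on the members was not tested. In bulk RNA, more cells of a type and more RNA per cell cannot be told apart.

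**Figure D1:**
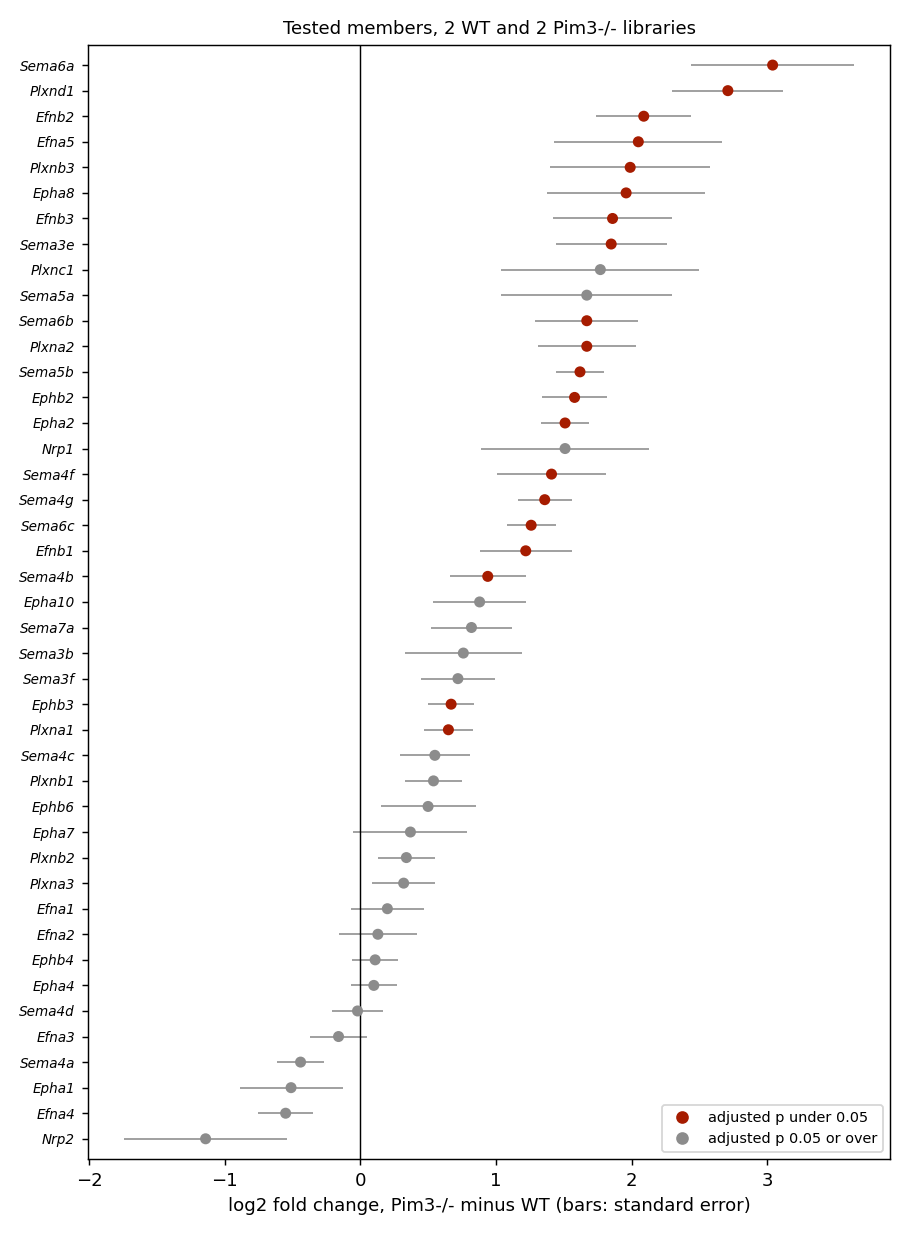
Log2 fold change (Pim3-/- minus WT, x axis) of the 43 tested members, with bars of 1 standard error from edgeR's quasi-likelihood fit of 2 against 2 libraries. The 20 members in red had an adjusted p under 0.05 and all lie above 0, from 0.65 for Plxna1 to 3.04 for Sema6a, while the 6 members below 0 are grey, 3 of which (Efna3, Sema4a and Sema4d) lie above 0 with library totals.

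Before the values, the stretch just upstream of the start is shown for 4 members: Epha2 and Plxnd1, whose calls stood under every alternative, and Efnb1 and Efnb2, from the family in which every gene rose. Each is the 250 bases before the RefSeq start on the gene's own strand (GRCm38.p6, the assembly family to which the reads were mapped), written 5′ to 3′ with CG dinucleotides in capitals. The windows are chrX:99135811-99136060 for Efnb1 (plus strand), chr8:8661243-8661492 for Efnb2 (minus), chr4:141300971-141301220 for Epha2 (plus) and chr6:115995006-115995255 for Plxnd1 (minus).
Efnb1: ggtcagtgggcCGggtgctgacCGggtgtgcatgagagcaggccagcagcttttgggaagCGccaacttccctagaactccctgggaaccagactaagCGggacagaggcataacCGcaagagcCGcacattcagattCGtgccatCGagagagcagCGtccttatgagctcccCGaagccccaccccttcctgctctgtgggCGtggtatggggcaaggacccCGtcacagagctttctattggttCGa
Efnb2: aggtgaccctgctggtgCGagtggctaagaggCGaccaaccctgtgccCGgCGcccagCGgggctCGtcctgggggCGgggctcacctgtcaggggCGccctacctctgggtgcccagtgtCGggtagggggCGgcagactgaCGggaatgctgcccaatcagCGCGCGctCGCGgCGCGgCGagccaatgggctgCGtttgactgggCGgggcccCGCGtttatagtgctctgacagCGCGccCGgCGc
Epha2: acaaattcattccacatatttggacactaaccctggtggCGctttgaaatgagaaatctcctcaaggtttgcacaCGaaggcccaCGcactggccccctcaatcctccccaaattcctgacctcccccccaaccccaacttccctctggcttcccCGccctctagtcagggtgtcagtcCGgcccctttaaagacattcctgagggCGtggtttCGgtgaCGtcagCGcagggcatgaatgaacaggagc
Plxnd1: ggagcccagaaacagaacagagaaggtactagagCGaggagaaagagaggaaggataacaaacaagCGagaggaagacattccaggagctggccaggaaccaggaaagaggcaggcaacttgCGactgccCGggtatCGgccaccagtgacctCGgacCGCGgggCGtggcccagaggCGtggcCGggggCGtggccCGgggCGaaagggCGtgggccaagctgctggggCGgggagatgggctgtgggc

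RefSeq's promoter table held an entry for 47 of the 53 members. Their windows had a median of 16 CG dinucleotides, against 15 over the 12042 tested genes with an entry, so the families as a whole were close to the background. The range was wide. Epha8 had 46, and Sema3a, Sema4a and Sema4d had 2 each. Members called higher had a median of 18, and members tested and not called one of 17. Epha2 had 9 and Efnb2 27. The sequence GGGCGG, searched on both strands, stood in 36 of the 47 windows (76.6%), against 57.4% of the tested genes, in 12 of 17 windows of members called higher (70.6%) and in 19 of 21 of those tested and not called (90.5%). TATAAA, on either strand, stood in 1 member's window, that of Efnb2 (2.13%, against 6.4%), and CCAAT in 14 (29.8%, against 36.3%). GGGCGG itself holds a CG dinucleotide, so its matches and the CG counts are not separate measures. These are matches of letters in a fixed window of 1 start a gene, the first that the table lists.

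Among EphA receptors, 2 of 6 tested genes rose in Pim3-/- ESCs (33.3%, against 17.6% of all tested genes), Epha2 and Epha8, and 4 did not pass. Epha8 reached the count filter through the Pim3-/- libraries alone, so nothing is read from its part of the 2. Epha2 (chromosome 4, 141301240 to 141329384, plus strand, GRCm38) encodes the EphA receptor of epithelia and of the pluripotent cells of the early embryo. It was at 25 and 28 CPM in WT replicates 1 and 2 and at 82.5 and 68 CPM in Pim3-/- replicates 1 and 2. Both clones lay above both WT libraries, at 26.5 ± 2.11 CPM against 75.3 ± 10.3 CPM (SD, n = 2), and the fitted log2 difference was 1.51 (standard error, SE, 0.18, edgeR adjusted p = 0.00369). It lay between 1.34 and 1.95 over the alternatives and passed the threshold in each. Epha8, known from the midbrain, was at 0.156 and 0.485 CPM in WT and 1.20 and 1.39 CPM in Pim3-/- libraries, or 3 and 11 counts against 32 and 36. Its log2 fold change of 1.96 (SE 0.58, edgeR adjusted p = 0.0368) rested on few WT counts. Without WT replicate 1 it was 1.36 (edgeR adjusted p = 0.332), without WT replicate 2 it was 2.93 (0.0902), and in the Wald test of DESeq2 the adjusted p was 0.0789.

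Epha4, the receptor that binds ephrins of both classes, stood near Epha2 in level per kilobase in WT cells (5.01 against 5.66 CPM per kb) and did not follow it. It was at 36 and 44.6 CPM in WT and at 43.7 and 42.7 CPM in Pim3-/- libraries, with overlapping groups and a log2 fold change of 0.10 (SE 0.17, edgeR adjusted p = 0.68). Epha1, the founding member of the family, was at 5.79 and 7.15 CPM in WT and split the clones, at 6.14 CPM in replicate 1 and 2.94 CPM in replicate 2. Epha7 stayed between 1.47 and 2.54 CPM in the 4 libraries. Epha10, which lacks kinase activity, was at 1.67 and 2.21 CPM in WT and 3.52 and 3.64 CPM in Pim3-/- libraries without passing (log2 fold change 0.88, edgeR adjusted p = 0.0792). Epha3, Epha5 and Epha6 were not tested, with at most 8 counts in any library.

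Per kilobase of exon, which allows genes to be compared, EphA transcripts summed to 11.7 and 13.9 CPM per kb in WT and 25.7 and 21.6 in Pim3-/- libraries. Epha2 made up 45.5% and 43.0% of that sum in WT and 68.8% and 67.3% in Pim3-/- libraries, while the share of Epha4 was 38.1% and 39.8% against 21.2% and 24.6%. The shares within a library do not depend on the scaling. For Epha1 the share was 12.6% and 13.1% in WT and 6.09% and 3.47% in Pim3-/- libraries. The groups did not overlap in any of these shares, and the differences in share were not tested.

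**Figure D2:**
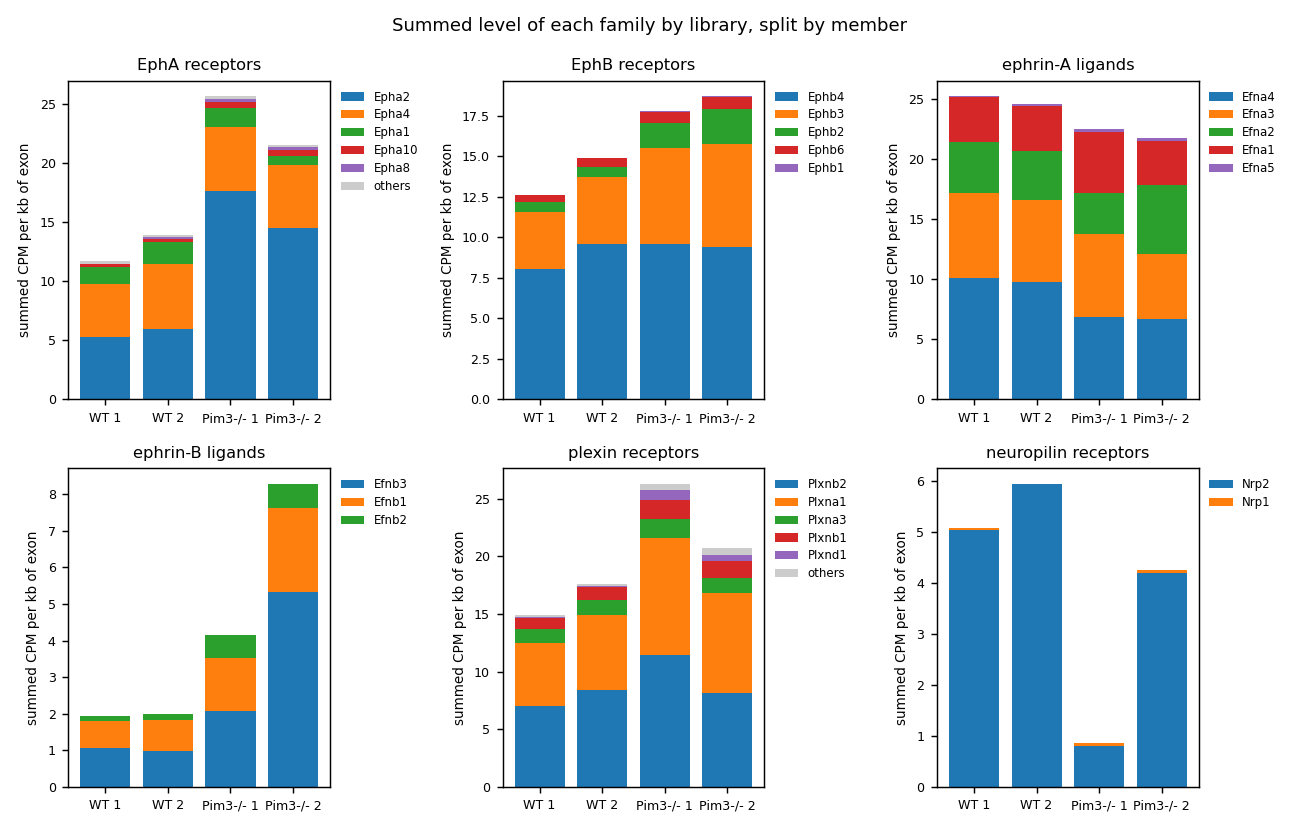
Summed level of 6 families in CPM per kilobase of exon (y axis, from 0) in each of the 4 libraries, with the bar split by member and the minor members of the larger families joined as others. Epha2 takes 43.0% to 45.5% of the EphA bar in WT and 67.3% to 68.8% in Pim3-/- libraries, and the neuropilin bar of Pim3-/- replicate 1 stands at 0.868 against 4.25 to 5.95 in the other libraries.

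In the EphB family, 2 of 4 tested genes rose (50%, against 17.6% of all tested genes), Ephb2 and Ephb3, while Ephb4 and Ephb6 did not pass. Ephb2, a receptor of the ephrin-B ligands that also binds ephrin-A5, was at 7.93 and 7.85 CPM in WT and 19.5 and 27.7 CPM in Pim3-/- libraries. That is 7.89 ± 0.0538 CPM against 23.6 ± 5.80 CPM (SD, n = 2), and the fitted log2 difference was 1.58 (SE 0.24, edgeR adjusted p = 0.00538). The call was lost only without WT replicate 1, at an adjusted p of 0.0544 and a log2 fold change of 1.54. Ephb3, known from the intestinal crypt, had a smaller change, from 23.3 and 27.6 CPM to 39.3 and 41.9 CPM (log2 fold change 0.67, SE 0.17, edgeR adjusted p = 0.0228), which did not pass without WT replicate 1 (0.50, adjusted p = 0.368) or WT replicate 2 (0.72, adjusted p = 0.182).

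Ephb4, the receptor of ephrin-B2 in veins, was the EphB gene with the highest level per kilobase in WT cells. It was at 37.4 and 44.6 CPM in WT and at 44.6 and 43.6 CPM in Pim3-/- libraries, and the groups overlapped (log2 fold change 0.11, SE 0.17, edgeR adjusted p = 0.649). Ephb6, which lacks kinase activity, was at 1.67 and 2.07 CPM against 2.66 and 2.63 CPM, with no overlap of the groups and an adjusted p of 0.299 in edgeR. Ephb1 counts were 0 and 2 (WT) against 8 and 11 (Pim3-/-), and it was not tested. Its summed counts were 7.57 times higher relative to library size, with a 95% interval of 1.83 to 67.0 that covers counting error only.

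All 3 ephrin-B genes rose (100%, against 17.6% of all tested genes). Efnb2 (chromosome 8, 8617434 to 8661242, minus strand), the ligand that marks arteries, was at 0.939 and 1.15 CPM in WT and at 4.30 and 4.65 CPM in Pim3-/- libraries. The clones were close together and at 4.29 times the WT mean, with a log2 fold change of 2.09 (SE 0.35, edgeR adjusted p = 0.00672) and values of 1.91 to 2.54 over the alternatives. It missed the threshold without WT replicate 1 (1.91, adjusted p = 0.0776). Efnb3 (chromosome 11, 69554092 to 69560205, minus strand), a ligand of the ventral midline of the nervous system, was at 3.39 and 3.09 CPM in WT, and at 6.62 CPM in Pim3-/- replicate 1 but 16.9 CPM in replicate 2. Its log2 fold change of 1.86 (SE 0.44, edgeR adjusted p = 0.0177) was thus carried unequally. Without Pim3-/- replicate 2 it was 1.02, without replicate 1 it was 2.37, and without either WT library the adjusted p was 0.0804 or 0.0941. Efnb1, the X-linked ligand whose loss disturbs the skull sutures (chromosome X, 99136130 to 99148991, plus strand), was at 2.56 and 2.96 CPM in WT and at 4.94 and 7.90 CPM in Pim3-/- libraries, a log2 fold change of 1.22 (SE 0.34, edgeR adjusted p = 0.0287), and did not pass without WT replicate 1 (adjusted p = 0.237) or 2 (0.16). Summed per kilobase, ephrin-B transcripts were at 1.94 and 1.99 CPM per kb in WT and at 4.14 and 8.29 in Pim3-/- libraries.

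Of the ephrin-A genes 1 of 5 was called higher (20%, against 17.6% of all tested genes), and the difference from the ephrin-B genes was not tested. The 1 gene, Efna5, reached the count filter through the Pim3-/- libraries alone. Efna1, Efna3 and Efna4 lie side by side on chromosome 3, from 89271733 to 89338028 on the minus strand, and none of them passed. Efna4 had the highest level per kilobase of all members in WT cells, 9.94 CPM per kb on average, at 16.2 and 15.6 CPM in WT and 10.9 and 10.7 CPM in Pim3-/- libraries. The groups did not overlap, yet the log2 fold change of -0.55 (SE 0.20) had an edgeR adjusted p of 0.0668. With library totals it was -0.10, and it was called lower without Pim3-/- replicate 1 (-0.58, adjusted p = 0.00587) or replicate 2 (-0.56, adjusted p = 0.00987). Efna3 was at 17.1 and 16.5 CPM against 17 and 13.1 CPM, with a log2 fold change of -0.16 that became 0.29 with library totals. Efna1 lay between 6.63 and 9.21 CPM in the 4 libraries. Efna2, on chromosome 10, was at 9.13 and 8.69 CPM in WT and 7.30 and 12.2 CPM in the clones, which fell on either side of WT.

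Efna5, a ligand of retinal mapping, was the ephrin-A gene that rose, from 2 and 8 counts to 29 and 23. In CPM this was 0.104 and 0.353 against 1.09 and 0.891, a log2 fold change of 2.05 (SE 0.62, edgeR adjusted p = 0.0393). The call was lost in the Wald test of DESeq2 (adjusted p = 0.111), without the filter (0.0507), without WT replicate 1 (1.42, 0.367) and without WT replicate 2 (3.10, 0.112). Ephrin-A transcripts summed to 25.2 and 24.5 CPM per kb in WT and 22.5 and 21.7 in Pim3-/- libraries, a ratio of 0.89 that was 1.22 with library totals, so no direction is given for the class. Exons of Efna3 and Efna4 share 14.1% and 10.5% of their length with antisense genes, and as the strand setting of the counting is not given in the sources used here, such reads cannot be told apart.

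**Figure D3:**
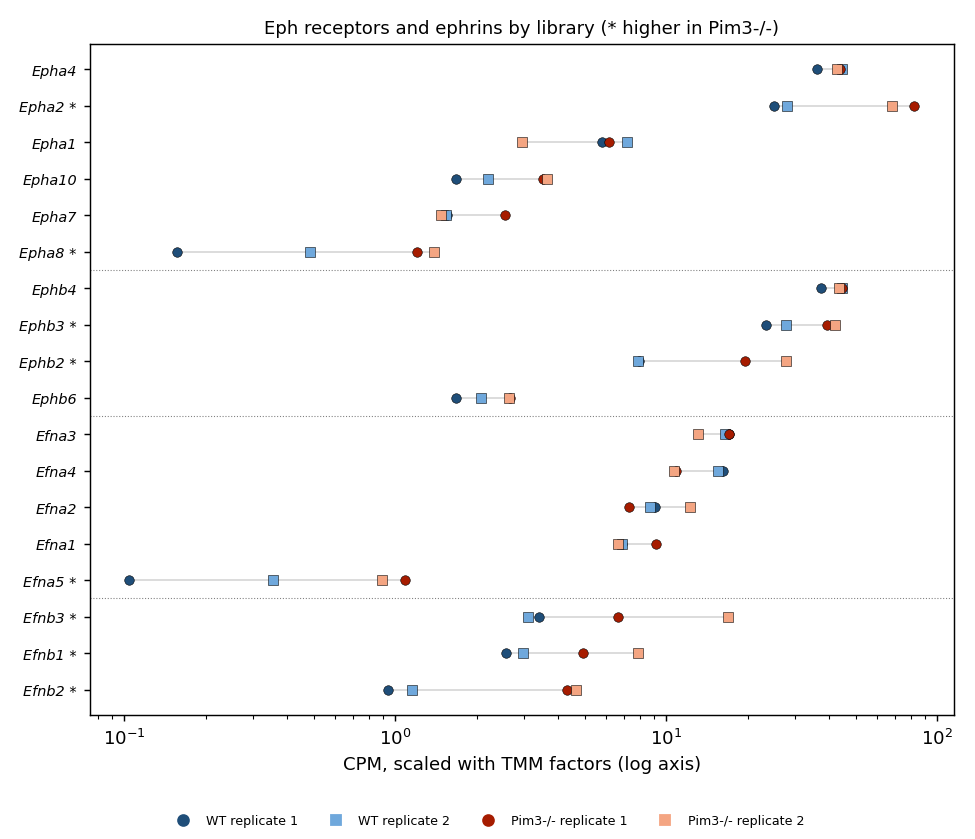
Levels of the 18 tested Eph and ephrin genes in each of the 4 libraries (CPM, log axis), grouped by class and ordered by WT level. The ephrin-B genes and Epha2 show both Pim3-/- libraries to the right of both WT libraries, while Epha4, Ephb4 and Efna1 to Efna3 show overlapping groups.

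Only 3 of the 7 secreted class 3 semaphorins were tested, and 1 of them, Sema3e, rose (33.3%, against 17.6% of all tested genes). Sema3e (chromosome 5, 14025276 to 14256689, plus strand) is the class 3 ligand that can bind its plexin, Plexin-D1, without a neuropilin. It was at 0.678 and 0.75 CPM in WT and 2.21 and 2.98 CPM in Pim3-/- libraries, so the groups were clearly apart, with a log2 fold change of 1.85 (SE 0.41, edgeR adjusted p = 0.0146) that did not pass without WT replicate 1 (adjusted p = 0.15) or 2 (0.117). Sema3f and Sema3b, neighbours 72.3 kb apart on chromosome 9, did not pass. Sema3f was at 4.43 and 4.76 CPM against 8.46 and 6.66 CPM (log2 fold change 0.72, edgeR adjusted p = 0.0751), and Sema3b was at 3.29 and 2.34 CPM against 2.96 CPM in Pim3-/- replicate 1 and 6.55 CPM in replicate 2. Sema3a, Sema3c, Sema3d and Sema3g were not tested, with at most 23 counts in any library. Sema3g counts were 3 and 5 (WT) against 22 and 4 (clones, replicates 1 and 2), and Sema3c had 5 and 8 against 23 and 7, so both were higher in Pim3-/- replicate 1 alone.

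Of the 12 tested semaphorins of classes 4 to 7, which are membrane-bound, 7 rose (58.3%, against 17.6% of all tested genes). Another 3 had values above 0 without passing and 2 had values below 0, where 9783 of all 18444 tested genes had values above 0. Sema6a among the 7 and Sema5a among the 3 reached the count filter through the Pim3-/- libraries alone. Nothing is read from their part of these counts. Sema5b (chromosome 16, 35541145 to 35664732, plus strand), a transmembrane semaphorin with thrombospondin repeats, was at 13.7 and 14.5 CPM in WT and 39.3 and 47.6 CPM in Pim3-/- libraries. At 14.1 ± 0.562 CPM against 43.4 ± 5.86 CPM (SD, n = 2) it had a log2 fold change of 1.62 (SE 0.18, edgeR adjusted p = 0.00338), the lowest p of all members, and it passed in each alternative, at 1.46 to 2.07. Its relative Sema5a, with 6 and 3 WT counts against 15 and 22 in Pim3-/- libraries, had a value of 1.67 with an adjusted p of 0.0752 in edgeR.

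In class 6, whose members serve as ligands of class A plexins, Sema6a, Sema6b and Sema6c rose. Sema6c was at 13.1 and 13 CPM in WT and 29.5 and 32.8 CPM in Pim3-/- libraries, with close replicates in both groups (log2 fold change 1.26, SE 0.18, edgeR adjusted p = 0.005). It missed the threshold without WT replicate 1 (adjusted p = 0.0702) or 2 (0.0637). Sema6b was at 1.83 and 2.16 CPM against 4.49 and 8.21 CPM (log2 fold change 1.67, SE 0.38, edgeR adjusted p = 0.0158). Its clones differed by 1.83 times, and without WT replicate 1 or 2 the adjusted p was 0.134 or 0.0886. Sema6a was nearly silent in WT, with 3 and 2 counts, and had 30 and 24 counts in Pim3-/- libraries. The ratio of the summed counts, scaled to library size, was 8.60, with a 95% interval of 3.47 to 27.6 for counting error only, and the edgeR adjusted p of 0.0106 was lost without WT replicate 1 (0.103) or 2 (0.142). Sema6d had no count in WT and 3 and 6 counts in the clones, and was not tested. The mean of the clones was 1.19 times a limit of 3 counts per WT library, which 0 counts cannot exclude. Counting error in the clones is not included, and replicate 1 itself had 3 counts, so no minimum fold is given.

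In class 4, Sema4b, Sema4f and Sema4g rose. Sema4g was at 8.81 and 10.1 CPM in WT and at 24.5 and 24.2 CPM in the clones, which were nearly equal (log2 fold change 1.36, SE 0.20, edgeR adjusted p = 0.00505), and without WT replicate 1 the adjusted p was 0.0777. Sema4f was at 1.04 and 1.06 CPM against 3.41 and 2.21 CPM (log2 fold change 1.41, SE 0.40, edgeR adjusted p = 0.0322), and missed the threshold in the Wald test of DESeq2 (0.0538) and without WT replicate 1 (0.23) or 2 (0.21). Sema4b, among the strongest members in WT cells, was at 33 and 36 CPM in WT, 46.1 CPM in Pim3-/- replicate 1 and 86.6 CPM in replicate 2. The log2 fold change of 0.94 (SE 0.28, edgeR adjusted p = 0.0375) was 0.40 without replicate 2 and 1.31 without replicate 1, and the call did not stand without WT replicate 1 (0.223) or 2 (0.167).

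Sema4a and Sema4d, both known from the immune system, did not share this rise. Sema4a was at 26.1 and 25.5 CPM in WT and 18.2 and 19.8 CPM in Pim3-/- libraries, without overlap, at a log2 fold change of -0.44 (SE 0.17, edgeR adjusted p = 0.0843) that became 0.01 with library totals. Sema4d, the ligand of Plexin-B1, lay between 29.3 and 38.8 CPM in the 4 libraries, with a value of -0.02 that became 0.43 with library totals. Sema4c was at 5.84 and 6.48 CPM against 7.82 and 10.3 CPM (0.55, edgeR adjusted p = 0.135), and Sema7a, the semaphorin with a lipid anchor, at 3.44 and 4.59 CPM against 8.08 and 6.16 CPM (0.82, edgeR adjusted p = 0.0669). Membrane-bound semaphorin transcripts together were at 23.3 and 24.5 CPM per kb in WT and 36 and 44.6 in Pim3-/- libraries.

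Among the plexins 4 of 8 tested genes rose (50%, against 17.6% of all tested genes), and the other 4 had values above 0. Of all 18444 tested genes, 9783 had values above 0. Plxnb3, which rose, and Plxnc1, among the other 4, reached the count filter through the Pim3-/- libraries alone. Nothing is read from their part of these counts. Plxnd1 (chromosome 6, 115954811 to 115995005, minus strand), the receptor of Sema3e in vessels, was at 0.626 and 0.882 CPM in WT and 6.10 and 3.87 CPM in Pim3-/- libraries, or 12 and 20 counts against 163 and 100. Its mean was 6.61 times that of WT, with a log2 fold change of 2.71 (SE 0.41, edgeR adjusted p = 0.00556), and it passed in each alternative, at 2.32 to 3.15. The ligand Sema3e and its receptor were thus both called higher, from levels under 1 CPM in WT cells. Plxna2, a receptor of Sema6a, was at 1.10 and 1.63 CPM against 4.68 and 4.07 CPM (log2 fold change 1.67, SE 0.36, edgeR adjusted p = 0.0134). It did not pass without WT replicate 1 (0.163) or 2 (0.0669).

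Plxna1, a broadly used receptor of class 3 and class 6 semaphorins, was already at 49.9 and 59.1 CPM in WT and rose to 92 and 78.5 CPM, at a log2 fold change of 0.65 (SE 0.18, edgeR adjusted p = 0.0285). The call was lost without WT replicate 1 (0.48, adjusted p = 0.397) or 2 (0.69, adjusted p = 0.195), and 10.7% of its exon length is shared with an antisense gene. Plxnb3, a receptor of Sema5a, was at 0.261 and 0.265 CPM in WT and at 1.42 and 0.697 CPM in the clones, or 5 and 6 counts against 38 and 18 (1.99, SE 0.59, edgeR adjusted p = 0.0363). Without Pim3-/- replicate 1 its value was 1.37 (adjusted p = 0.126), without WT replicate 1 or 2 the adjusted p was 0.256 or 0.238, and in the Wald test of DESeq2 it was 0.107. On chromosome X it lies 557 kb from Plxna3, which was at 9.02 and 9.84 CPM against 13.2 and 10.4 CPM and did not pass.

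Plxnb2, a receptor of class 4 semaphorins and the plexin with the highest level per kilobase in WT cells, was at 54.3 and 64.7 CPM in WT and 88.3 and 62.5 CPM in the clones, which enclosed WT replicate 2 (log2 fold change 0.34, SE 0.21, edgeR adjusted p = 0.237). Plxnb1 was at 9.75 and 10.7 CPM against 15.8 and 13.9 CPM, without overlap (0.54, edgeR adjusted p = 0.0838). Plxnc1, the receptor of Sema7a, was at 0.313 and 0.441 CPM in WT, and at 0.524 CPM in Pim3-/- replicate 1 and 2.09 CPM in replicate 2, a difference of 3.99 times between clones. Plxna4 counts were 2 and 0 (WT) against 6 and 5 (Pim3-/-), and it was not tested. The plexins summed to 14.9 and 17.6 CPM per kb in WT and 26.3 and 20.7 in Pim3-/- libraries.

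Nrp2 differed more between the clones than any other tested member. Nrp2 (chromosome 1, 62703285 to 62818695, plus strand), the receptor subunit for Sema3f and a co-receptor for VEGF-C, was at 59.7 and 70.3 CPM in WT, at 9.47 CPM in Pim3-/- replicate 1 and at 49.6 CPM in replicate 2. Both clones lay below both WT libraries, but replicate 2 was 5.24 times above replicate 1, and the mean of 65.0 ± 7.46 CPM against 29.6 ± 28.4 CPM (SD, n = 2) was not called (log2 fold change -1.14, SE 0.60, edgeR adjusted p = 0.177). Without Pim3-/- replicate 1 the value was -0.41, and without replicate 2 it was -2.80, each called in a fit whose spread comes from the close WT pair. With the replicate number as a block the value was -1.54 and the adjusted p 0.00731. Nrp1, which serves Sema3a and VEGF-A, had 6 and 3 WT counts against 18 and 15 in Pim3-/- libraries (1.51, SE 0.62, edgeR adjusted p = 0.0938). Nrp2 made up 92.1% to 99.8% of the neuropilin transcripts per kilobase in every library.

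**Figure D4:**
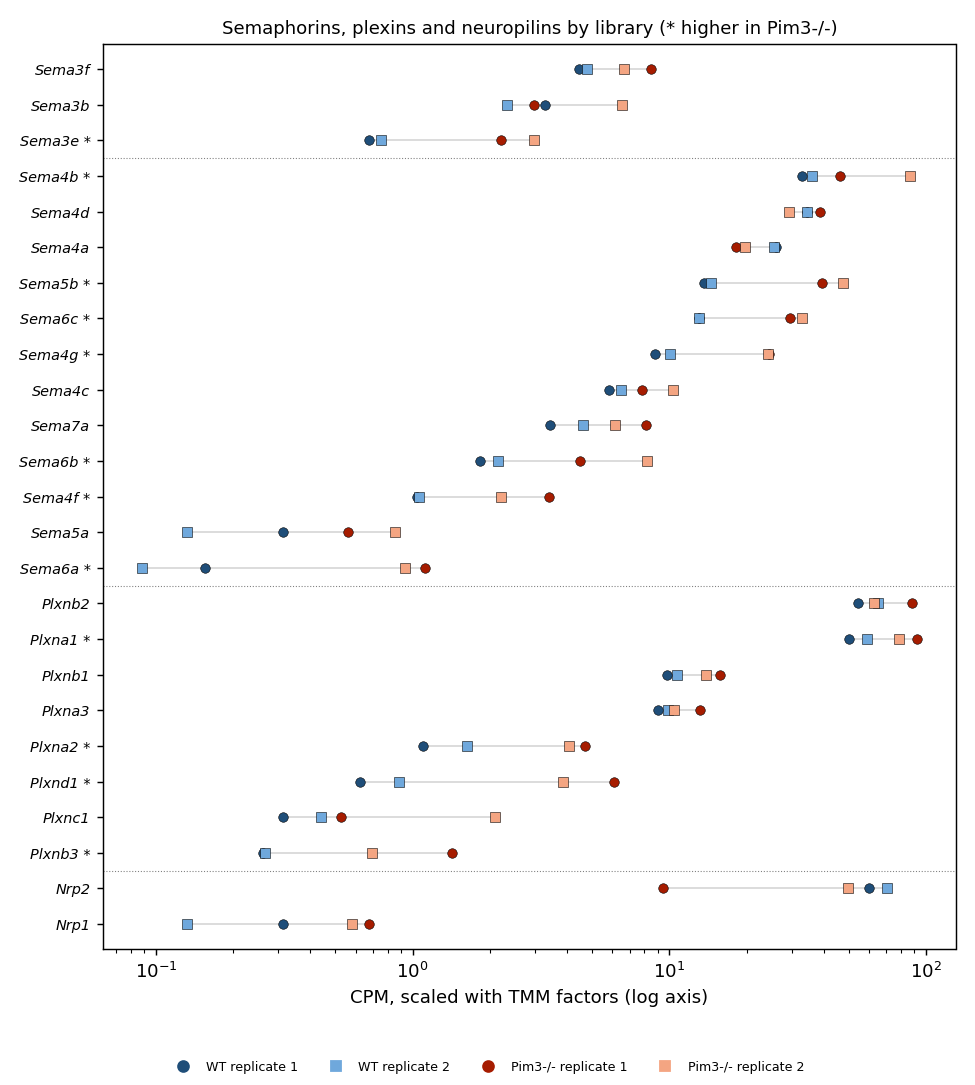
Levels of the 25 tested semaphorin, plexin and neuropilin genes in each of the 4 libraries (CPM, log axis), grouped by class and ordered by WT level. Sema5b, Sema4g and Plxnd1 show clear gaps between the groups, and Nrp2 shows Pim3-/- replicate 1 at 9.47 CPM, far to the left of the other libraries at 49.6 to 70.3 CPM.

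The clones differed by at least 2-fold in 6 of the 43 tested members, against 11.0% of all tested genes. In Nrp2, Plxnc1, Efnb3 and Sema3b replicate 2 was the higher clone, and in Epha1 and Plxnb3 replicate 1 was. The WT libraries differed that much in 4 members (against 6.63% of all tested genes), Efna5, Epha8, Nrp1 and Sema5a, which had at most 11 counts in either WT library.

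In WT cells, the 10 members with the highest level per kilobase of exon were Eph receptors, ephrin-A ligands, class 4 semaphorins, plexins and a neuropilin, with no ephrin-B or class 3 semaphorin gene among them. In order they were Efna4 (9.94 CPM per kb), Ephb4 (8.83), Plxnb2 (7.71), Efna3 (6.91), Sema4b (6.11), Plxna1 (6.02), Epha2 (5.66), Nrp2 (5.49), Epha4 (5.01) and Sema4a (4.77). Of these, Sema4b, Plxna1 and Epha2 rose in Pim3-/- ESCs, and Epha2, seventh in WT, stood first among all members there by the mean, with 16.1 CPM per kb. In Pim3-/- replicate 2 alone Sema4b stood above it, at 15.3 against 14.5 CPM per kb. At the other end, Sema3d and Sema6d had no count in either WT library, and Sema3a and Epha3 had at most 1 count in any library.

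Members that lie close together on a chromosome did not share a single pattern. Ephb2 and Epha8 are separated by 93.4 kb on chromosome 4 and were both called higher, at 1.58 and 1.96. Sema3b and Sema3f, at 0.76 and 0.72, were both not called, and the Efna1, Efna3 and Efna4 group had values of 0.20, -0.16 and -0.55. Plxnb3 was called and Plxna3 was not. Exon sequence was shared with another gene in 14 members, in 11 of them with a gene on the opposite strand.

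A list of 46 genes that act inside the cell on Eph, ephrin and plexin signals, written from general knowledge, was tested in full. Of these, 15 were higher (32.6%, against 17.6% of all tested genes), 4 lower (against 16.2%) and 27 did not pass, with a median log2 fold change of 0.42, against 0.07 over all tested genes. Src, a kinase recruited by both receptor families, had a value of 1.10 (SE 0.17, edgeR adjusted p = 0.00562). Farp1, an exchange factor linked to class A plexins, was at 1.29 (adjusted p = 0.00767) and Mical3, of the family of plexin-bound oxidoreductases, at 1.02 (adjusted p = 0.00794). The lower genes were Cfl1, the actin-severing cofilin, at -1.46 (SE 0.26, edgeR adjusted p = 0.00748), Cdc42 at -0.87 (0.0116), Cdk5 at -0.76 (0.0187) and Rhoa at -0.72 (0.0282). Rac1, Limk1, Rock1 and Rock2 did not pass, with values of -0.06, 0.07, 0.09 and 0.06. The 15 higher genes also held Tiam1 (1.21), Arhgef11 (0.88), Arhgef12 (0.90), Abl1 (0.82) and Abl2 (0.55), so the list had no single direction. With library totals 1 gene of the list was lower, and without WT replicate 1 or 2 the list had 1 and 0 genes higher and 0 and 1 lower.

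In the other guidance systems, 11 of 22 tested genes of a 26-gene list were higher (50%, against 17.6%), 1 was lower (against 16.2%) and 10 did not pass, with a median of 0.92. The lower gene was the ligand Netrin-1 (Ntn1), with 1007 and 1359 WT counts against 469 and 725 in Pim3-/- libraries (-1.30, SE 0.24, edgeR adjusted p = 0.0087). Of the other netrin ligands on the list, Ntn4 (1.99, edgeR adjusted p = 0.0412) and Ntn5 (2.23, 0.0496) were higher, and Ntn3 (-0.89, 0.161) did not pass. Netrin receptors were also among the higher genes. Unc5a, which mediates repulsion from netrin, had 17 and 18 WT counts against 87 and 230 in the clones (2.85, edgeR adjusted p = 0.00921), and Dcc, which mediates attraction, 6 and 14 against 79 and 43 (2.28, edgeR adjusted p = 0.0169). Robo4, an endothelial member of the Slit receptor family, was at 1.71 (edgeR adjusted p = 0.00703). The count of 11 was 6 in the Wald test of DESeq2 and 6 without the filter, and 1 without WT replicate 1 and 1 without WT replicate 2.

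Of 18 tested co-receptors and processing enzymes on a 20-gene list, 9 were higher (50%, against 17.6%), 1 lower (against 16.2%) and 8 did not pass, with a median of 0.91. Among the 9, Nrcam and Flt1 reached the count filter only with the Pim3-/- libraries, and the lower gene, Itga1, only with the WT libraries. Nothing is read from their part of these counts. Nrcam, a cell adhesion partner of neuropilins, rose from 5 and 5 counts to 75 and 92 (log2 fold change 3.70, SE 0.46, edgeR adjusted p = 0.00394). Of the VEGF receptors on the list, Flt4 and Flt1 rose and Kdr did not pass (10 and 12 counts against 6 and 18, log2 fold change -0.19, edgeR adjusted p = 0.836). Flt4 had a value of 2.05 (edgeR adjusted p = 0.005), and Flt1, with 2 and 1 WT counts against 79 and 48 in Pim3-/- libraries, a ratio of summed counts of 33.7 with a 95% interval of 11.3 to 166 for counting error. Itga1, an integrin chain, was the lower gene, at 1.15 and 0.573 CPM against 0.187 and 0.232 CPM (edgeR adjusted p = 0.0389). It was not called in the Wald test of DESeq2, with library totals, without the filter, with the stricter filter or without either WT library. Without WT replicate 1 or 2 the list had 3 genes higher in either case.

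The marker lists of other cell types had these counts, to be read against 17.6% of all tested genes higher and 16.2% lower. Of the tested genes, 1 of 6 mesoderm and primitive streak markers was higher, as were 3 of 9 trophoblast, 2 of 6 endothelial, 2 of 5 fibroblast and 1 of 6 neuroectoderm markers, and 1 fibroblast and 1 neuroectoderm marker were lower. Summed levels were 8.03 to 9.13 CPM in WT against 17.7 to 28.9 CPM in Pim3-/- libraries for mesoderm, 159 to 164 against 148 to 164 for trophoblast, 132 to 137 against 151 to 222 for endothelial, 32.4 to 32.8 against 53.5 to 54.0 for fibroblast and 132 to 140 against 80.7 to 99.9 for neuroectoderm markers. Dcx, Tpbpa, Emcn, Lum and Prrx1, defining markers of these types, had no count in any library.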

How the data were processed

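RNA-seq libraries of 2 WT samples and 2 Pim3-/- clones of E14 ESCs were compared, with 1 library per sample or clone. The table that the authors deposited holds whole-number counts of reads for each gene, not normalized. The paper's methods name Cutadapt, Hisat2, mm10 and the Ensembl annotation, whereas the submitters' processing notes name Trim Galore, STAR, featureCounts and GRCm38. Which set made the counts, the strand setting and the treatment of reads with several locations are not given in the sources used here. A second table, of transposable elements, was not used.

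Genes with low counts were removed with filterByExpr (minimum count 10, minimum total 15) of edgeR 4.0.16, counts were scaled by TMM factors, and Pim3-/- was tested against WT by quasi-likelihood in edgeR under R 4.3.3, with Benjamini-Hochberg adjustment over all 18444 tested genes. Standard errors are the log2 fold change divided by the square root of F. A single value of 2 against 2 libraries cannot go below an exact permutation p of 0.333, so none is given. Exon lengths and positions came from GENCODE M21 (GRCm38). Alternatives were size factors or the Wald test of DESeq2 1.42.0, library totals, no filter, at least 10 counts in every library, a replicate block, and the omission of each library. The methods were tested on simulated counts. Replicate numbers are not stated to mark a shared day or culture, and the correlation of same-numbered deviations across genes was 0.0196. Figures used matplotlib 3.10.9 in Python 3.11.15.

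All members are named. Values in every library are given for members with an adjusted p under 0.05 and at least a 2-fold change and for the 10 with the highest WT level per kilobase, others as values or ranges. From the partner lists, up to 3 called genes in each direction with the lowest p are named. Rhoa and other called partner genes named beyond this rule were added after their values were seen. Rac1, Limk1, Rock1, Rock2, Ntn3 and Kdr are named without being called. The members and lists were chosen with earlier results of these data known. The marker lists were those of pluripotency, primitive endoderm, mesoderm, neuroectoderm, trophoblast, fibroblast and endothelial genes.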

Additional observations from a re-analysis of the deposited data

How the results depend on the processing

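Depth limits the weakest genes, since a count of 0 allows up to 3 counts, or 0.112 to 0.156 CPM. Of the 20 members called higher, 20 were kept with DESeq2's size factors, with library totals and with the replicate block, 16 with the Wald test, 19 without the filter, and 16 of the 16 that a filter on 10 counts in every library left. No called member changed sign. With library totals 32 of the 43 tested members were higher, against 35.8% of all tested genes, where 17.6% were higher with TMM factors. The median was 1.32 against 0.88, beside a shift of all genes by 0.45. Leaving out 1 library gave 3 to 27 members higher, 0 to 4 lower and a median of 0.83 to 1.05. With the replicate block 1 member, Nrp2, was lower, and no other call of a member changed under it. The deviations of same-numbered libraries were not correlated enough to pair them.

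Members that changed sign were not called. With library totals these were Efna3 at 0.29, Sema4a at 0.01 and Sema4d at 0.43, and with 10 counts in every library Sema4d at 0.06. With 1 library left out they ranged from -0.07 to 0.40 for Efna1, -0.30 to 0.44 for Efna2, -0.10 to 0.18 for Epha4, -0.10 to 0.69 for Epha7, -0.07 to 0.15 for Ephb4 and -0.25 to 0.16 for Sema4d. Among intracellular partners 1 gene was lower with library totals, and 0 to 20 were higher and 0 to 10 lower with 1 library left out. Other guidance genes had 6 higher in the Wald test, 6 without the filter and 1 to 14 with 1 library left out. Of the co-receptors and enzymes 0 were lower with the Wald test, library totals, no filter or 10 counts in every library, and 3 to 12 were higher and 0 to 2 lower with 1 library left out. The cause of these changes was not tested, except that library totals shift all genes alike.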
